A study of Mus musculus with 2 samples.

Results

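The genes of trans-synaptic adhesion were compared between the SVZ and the cortex of the mouse brain at embryonic day 16.5. They were chosen by name and by known function, by a rule that uses no measured value but was written with earlier results of these data known, as 39 gene symbols among the 24411 listed in the count files, and reads were listed for all 39. Each area was cut by laser capture microdissection (LCM) from haematoxylin and eosin stained cryosections of fresh-frozen brain and profiled by bulk RNA-seq as 1 library, with no treatment, genotype or strain given in the labels for either. The subventricular zone (SVZ) is a germinal layer beside the lateral ventricle, and both pieces followed the outlines used in the light-driven barcoding experiment that they served to benchmark. With 1 library per area no difference has a replicate check. No test between areas was run, and each interval below is an exact 95% interval of read counts that covers counting error only, with each read taken as independent. PCR copies without molecular identifiers are not independent molecules, so the intervals may be too narrow even for counting error.

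Synapses form where adhesion proteins on an axon meet partners on the dendrite it contacts. Neurexins and the LAR-type receptor tyrosine phosphatases act as presynaptic hubs. Neuroligins, LRRTMs, calsyntenins, Slitrks, SALMs, netrin-G ligands and the IL-1 receptor relative Il1rapl1 sit mostly across the cleft and bind those hubs or the netrin-Gs. Teneurins and FLRTs bind latrophilins, and FLRTs also bind Unc5 receptors, a contact known for steering migrating cortical neurons before synapses exist. Most of these proteins are known best from neurons, and many carry leucine-rich repeats. In bulk tissue fewer cells of a type and less RNA per cell cannot be told apart.

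Reads assigned to genes numbered 51435667 in the SVZ library and 22050693 in that of the cortex. Values are read counts scaled to a total of 1000000 (CPM), and ratios are log2 of SVZ CPM over cortex CPM, so that negative values mean more in the cortex library. The labelled areas were checked against marker lists. All 6 radial glia markers were higher in the SVZ library, with a summed level of 6332 against 107 CPM, and all 6 neuron markers were higher in the cortex library, 6026 against 1869 CPM, with log2 ratios from -3.51 to -0.86. None of these 12 markers was at 0 in either library. Intermediate progenitor markers (3 of 3 higher in SVZ) summed to 492 and 34.0 CPM and those of dividing cells (3 of 3) to 1084 and 16.9 CPM. Of the other lists, blood vessel markers (2 of 3 higher in SVZ) summed to 59.3 CPM in SVZ and 45.2 CPM in cortex. Interneuron markers (4 of 4 higher in SVZ) summed to 78.0 and 51.7 CPM, and the oligodendrocyte lineage (1 of 3) to 8.88 and 10.2. Microglia markers (3 of 3) summed to 15.9 and 2.86 CPM, and those of choroid plexus (2 of 2) to 243 and 0.726, in SVZ and cortex respectively. Deep-layer neuron markers (4 of 4 higher in cortex) summed to 260.2 and 1107 CPM. Meningeal markers summed to 3.07 CPM in SVZ and 3.90 CPM in cortex. Of these, Col1a2 was higher in the SVZ library, Dcn was higher in the cortex library, and Col1a1 had 0 and 2 reads. The choroid plexus marker Folr1 was at 0 in the cortex library.

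To show the sequences behind the genes that stood furthest apart, the 250 bases before the RefSeq transcription start (GRCm38.p6, 5′ to 3′ on the gene's strand) are given for the 3 members with the most negative ratios that have an entry, then for 2 further cortex-side members that hold a cAMP response element, and last for Flrt3, the member with the most reads per length in the SVZ library. Capitals mark the letters found of those searched on both strands. These were CAGATG, an E-box of the kind bound by proneural factors, the further E-box CAGCTG, the TATA box letters TATAAA, and TGACGTCA for the cAMP response element.
Lrfn5 (chr12:61522917-61523166, plus strand): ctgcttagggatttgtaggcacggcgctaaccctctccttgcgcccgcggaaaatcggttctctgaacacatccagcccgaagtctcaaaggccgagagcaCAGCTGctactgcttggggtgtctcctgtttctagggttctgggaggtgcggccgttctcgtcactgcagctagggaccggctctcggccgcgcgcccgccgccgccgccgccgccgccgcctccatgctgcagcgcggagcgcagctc
Lingo1 (chr9:56635649-56635898, minus strand): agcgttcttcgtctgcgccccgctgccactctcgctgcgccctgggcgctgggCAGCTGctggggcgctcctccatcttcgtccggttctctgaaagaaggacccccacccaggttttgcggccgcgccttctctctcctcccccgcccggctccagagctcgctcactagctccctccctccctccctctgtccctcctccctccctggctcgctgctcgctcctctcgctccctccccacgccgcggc
Lrrtm1 (chr6:77242227-77242476, plus strand): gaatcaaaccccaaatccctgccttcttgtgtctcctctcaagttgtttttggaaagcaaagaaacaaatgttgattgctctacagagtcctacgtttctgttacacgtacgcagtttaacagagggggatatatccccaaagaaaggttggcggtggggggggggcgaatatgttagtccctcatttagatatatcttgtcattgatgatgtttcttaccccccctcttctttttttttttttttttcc
Clstn2 (chr9:98033168-98033417, minus strand): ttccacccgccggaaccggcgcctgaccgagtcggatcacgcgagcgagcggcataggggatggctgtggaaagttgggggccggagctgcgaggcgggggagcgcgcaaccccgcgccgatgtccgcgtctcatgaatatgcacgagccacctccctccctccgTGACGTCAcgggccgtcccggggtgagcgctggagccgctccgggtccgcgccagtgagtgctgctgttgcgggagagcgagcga
Tenm3 (chr8:48674691-48674940, minus strand): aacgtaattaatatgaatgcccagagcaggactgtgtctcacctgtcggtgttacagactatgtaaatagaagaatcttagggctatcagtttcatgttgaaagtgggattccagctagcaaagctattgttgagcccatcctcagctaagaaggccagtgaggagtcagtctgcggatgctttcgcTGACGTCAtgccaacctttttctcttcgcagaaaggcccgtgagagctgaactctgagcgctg
Flrt3 (chr2:140671477-140671726, minus strand): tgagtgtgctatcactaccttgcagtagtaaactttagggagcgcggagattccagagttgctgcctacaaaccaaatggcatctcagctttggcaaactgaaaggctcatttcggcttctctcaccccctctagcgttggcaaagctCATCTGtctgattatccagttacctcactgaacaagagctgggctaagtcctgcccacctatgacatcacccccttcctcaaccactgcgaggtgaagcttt
Entries were found for 31 of the 39 members, with 41 starts in all. CAGATG stood in 4 of 41 member promoters (9.76%) against 14.4% of all, CAGCTG in 6 of 41 member promoters (14.6%) against 13.0% of all, TATAAA in 2 of 41 member promoters (4.88%) against 12.4% of all and TGACGTCA in 3 of 41 member promoters (7.32%) against 1.55% of all. The 3 starts with TGACGTCA belonged to Clstn2, Tenm3 and Slitrk2, whose ratios were -3.79, -2.52 and -0.58. These are matches of letters in a window and are not shown to be bound. Of the sequences shown, those of Lrfn5 and Lingo1 held CAGCTG, that of Flrt3 held CAGATG on the reverse strand, and that of Lrrtm1 held none of the letters. The starts shown for Lingo1, which has 2 in RefSeq, and for Tenm3 lie inside the longer GENCODE gene. The window of the other Lingo1 start (chr9:56796311-56796560), which is not shown, held none of the letters. G and C made up 70.8% of the bases shown for Clstn2 and 42.0% of those for Lrrtm1.

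Across the list, 33 of the 38 members that reached 1 CPM on average had the higher CPM in the cortex library. The same held for 5748 of all 12738 genes with that minimum. The remaining member, Slitrk6, was under that minimum. A 4-fold or larger excess in the cortex library was found for 18 of the 38, where 7.01% of all 12738 genes with the same minimum had one. Lrfn5 (0.0389 CPM in SVZ) and Lrfn2 (0.0972 CPM) reached the minimum through the cortex library alone, so both had to be past 4-fold. No member was 4-fold higher in the SVZ library, where 10.2% of all genes were. At 2-fold the counts were 24 in the cortex library and 0 in the SVZ library, beside 15.6% and 20.0% of all genes. The counting interval lay wholly on the cortex side for 31 members (38.6% of all genes), wholly on the SVZ side for 3 (48.2% of all genes) and across 0 for 4. Under TMM, DESeq2 and upper-quartile scaling 34 of the 38 were higher in the cortex library, and the 1 interval that spanned 0 was that of Il1rapl1. The median ratio of all genes was then 0.0142 to 0.0201. The median ratio of the members was -1.74, with quartiles of -2.60 and -0.59, and that of all genes tested was 0.11, with quartiles of -0.56 and 0.76. Summed over the list, the members took 1417 CPM of the SVZ library and 3331 CPM of the cortex library, 2.35-fold more in the cortex. Set beside the 6 neuron markers, 7 members had a more negative ratio than the lowest of these markers (Syt1, -3.51), 18 lay within the range of the markers and 13 lay above it. Most members' ratios thus had the sign of the neuron markers and the opposite sign to markers of dividing and progenitor cells, and the part of these cells in the result was not tested.

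**Figure D1:**
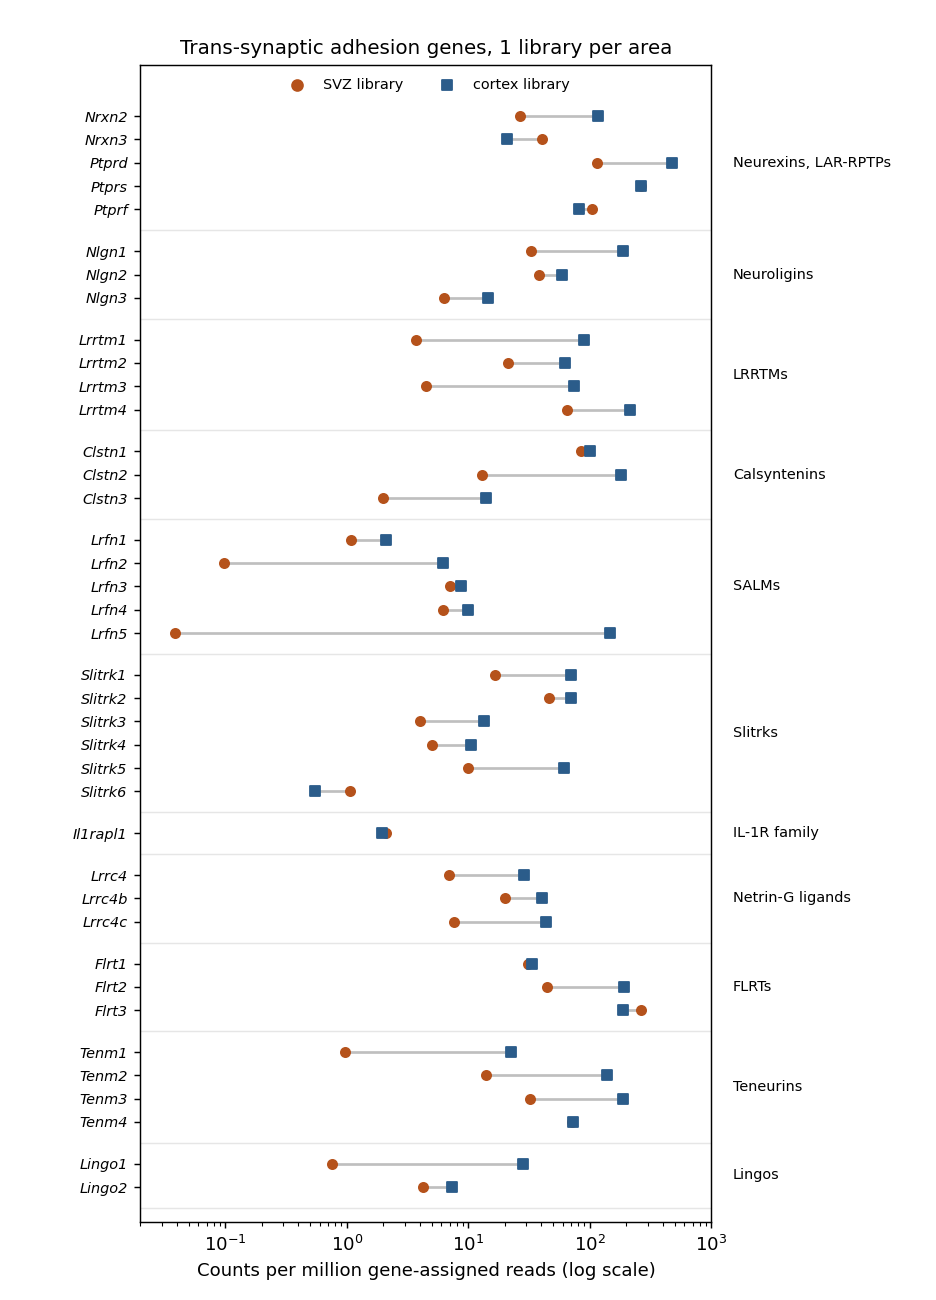
Level of each of the 39 genes in the SVZ library (circles) and the cortex library (squares), in CPM on a log axis, by family, with 1 library per area and so no error bars. The squares lie to the right of the circles for 33 genes, Lrfn5 has the widest gap, and for Ptprs and Tenm4 the square covers the circle.

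**Figure D2:**
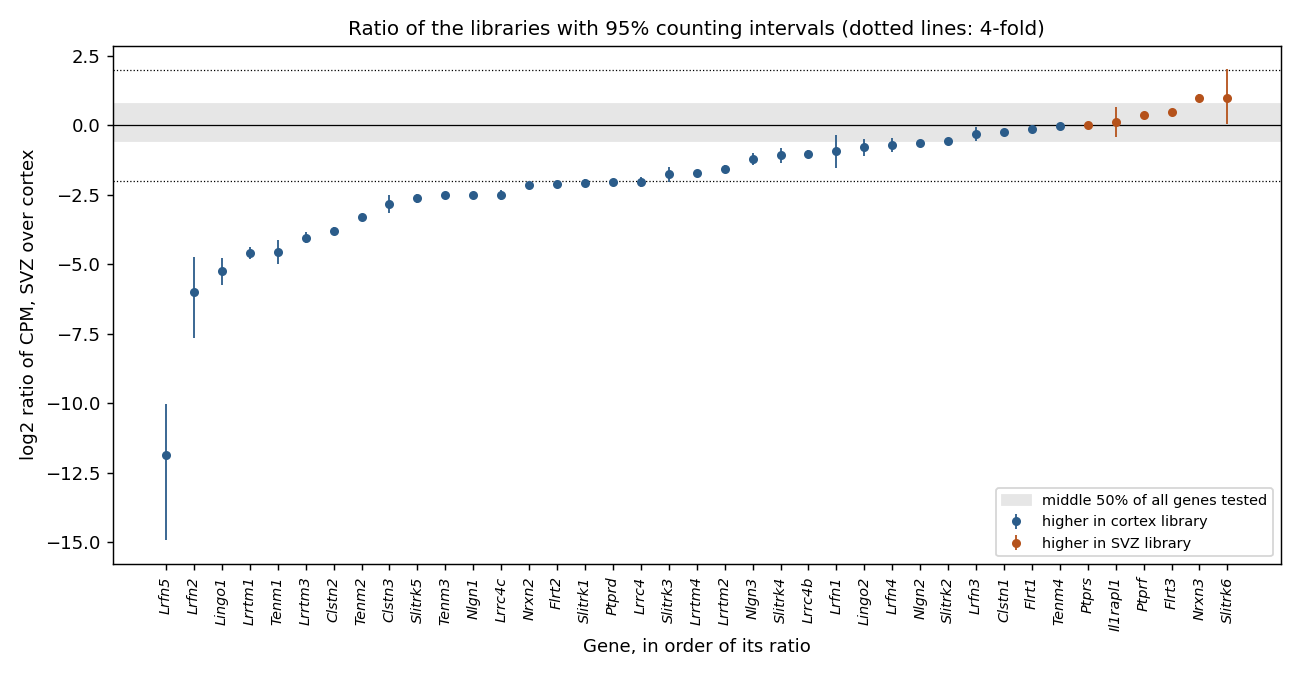
The log2 ratio of SVZ over cortex CPM for each member in order, with exact 95% counting intervals as bars, the middle 50% of all genes tested as a grey band and 4-fold as dotted lines. The points of 18 cortex-side members lie below the lower dotted line, and no point lies above the upper one.

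The presynaptic hubs were divided between the libraries. Nrxn2, an alpha- and beta-neurexin gene, was measured at 26.5 CPM in SVZ against 117 CPM in cortex, and a log2 ratio of -2.15 (-2.24 to -2.05). Nrxn3 ran the other way, at 40.7 CPM in SVZ against 20.7 CPM in cortex, and a log2 ratio of 0.97 (0.83 to 1.12). The ratio of Nrxn3 thus exceeded that of Nrxn2 by 3.12 (2.94 to 3.30) on the log2 scale, and Nrxn3 had the most positive ratio of the 38 members. This pair, like those compared with an interval below, was picked as the highest and lowest ratio of its family. The sign of each such difference was therefore fixed by the choice, which its interval does not cover. Among the LAR-type phosphatases, whose ectodomains bind many postsynaptic ligands, Ptprd (PTP-delta; chromosome 4, 75941238 to 78211961) was measured at 115 CPM in SVZ against 475 CPM in cortex, and a log2 ratio of -2.04 (-2.09 to -2.00). Ptprs, which encodes PTP-sigma, stood at 265 and 264 CPM, a log2 ratio of 0.01 (-0.04 to 0.05), an interval that spans 0 by total reads and runs from -0.13 to -0.04 under TMM scaling. Ptprf, the LAR gene itself, had 104 and 80.7 CPM, a log2 ratio of 0.37 (0.29 to 0.45). Ptprd was therefore 4.12-fold higher in the cortex library while its paralogues lay within 2-fold. Per kilobase of exon, Ptprd took 31.8% of the summed level of the phosphatases in SVZ and 67.2% in cortex, and Ptprs 50.2% and 25.7%. The length of Ptprd is uncertain, with 4793 exonic bases in transcripts matched to RefSeq and 22822 in all GENCODE transcripts, and with the latter its cortex share was 44.0%.

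The neuroligins, the classical neurexin ligands, were all higher in the cortex library. Nlgn1, known for excitatory synapses, was measured at 32.5 CPM in SVZ against 186 CPM in cortex, and a log2 ratio of -2.51 (-2.60 to -2.43). Nlgn2, known for inhibitory synapses, stood at 38.0 and 58.7 CPM, a log2 ratio of -0.63 (-0.73 to -0.53), and the X-linked Nlgn3 at 6.32 and 14.6 CPM, a log2 ratio of -1.21 (-1.44 to -0.98). The cortex excess was larger for Nlgn1 than for Nlgn2, whose ratios differed by 1.89 (1.75 to 2.02). Per length, Nlgn2 led the family in the SVZ library with 65.4% of its level and Nlgn1 led in the cortex library with 56.8%.

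The LRRTMs, leucine-rich repeat proteins of the excitatory postsynaptic membrane that bind neurexins or heparan sulfate, summed to 93.9 CPM in SVZ and 438 CPM in cortex. Lrrtm1 (chromosome 6, 77242689 to 77257791) was measured at 3.71 CPM in SVZ against 89.3 CPM in cortex, and a log2 ratio of -4.59 (-4.81 to -4.37). Lrrtm3 had 4.51 and 73.9 CPM, a log2 ratio of -4.03 (-4.24 to -3.83). Both were thus over 4-fold apart, by 24.1 and 16.4 times. Lrrtm4, a receptor for glypicans, was measured at 64.4 and 212 CPM, a log2 ratio of -1.72 (-1.79 to -1.66), and Lrrtm2 at 21.3 and 62.7 CPM, a log2 ratio of -1.56 (-1.67 to -1.44). Lrrtm4 led the family per length in both libraries, with 63.0% in the SVZ and 35.5% in the cortex, where Lrrtm1 came next at 34.8%. Lrrtm1, Lrrtm2 and Lrrtm3 lie inside the alpha-catenin genes Ctnna2, Ctnna1 and Ctnna3, on the opposite strand. The library kept no strand, so reads from an intron of the host cannot be told apart from those of the nested gene. The hosts had ratios of -0.94, 2.86 and -4.03 in that order, the last from 1 and 7 reads.

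The calsyntenins, cadherin-related membrane proteins, showed a wide spread. Clstn1, which links cargo to kinesin in axons, was measured at 84.4 CPM in SVZ against 101 CPM in cortex, and a log2 ratio of -0.25 (-0.33 to -0.18). Clstn2 had 13.1 and 181 CPM, a log2 ratio of -3.79 (-3.91 to -3.67), and Clstn3, a neurexin ligand, 1.98 and 14.0 CPM, a log2 ratio of -2.82 (-3.15 to -2.49). Clstn1 differed least between the libraries, at 1.19-fold, whereas Clstn2 was 13.8-fold and Clstn3 7.04-fold higher in the cortex library. The ratio of Clstn1 exceeded that of Clstn2 by 3.54 (3.39 to 3.68). Clstn1 held 84.4% of the family's level per length in SVZ, but Clstn2 led in cortex with 61.6%.

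The SALMs, encoded by the Lrfn genes, spanned the widest range of any family. Lrfn5 (SALM5; chromosome 12, 61523150 to 61858342), whose protein binds LAR-type phosphatases, was counted 2 times in SVZ (0.0389 CPM) and 3218 times in cortex (146 CPM). This log2 ratio of -11.87 (-14.92 to -10.02) was the most negative of all 12738 genes tested. In that order 3 reads stood in for a count of 0, while the 2 SVZ reads of Lrfn5 were kept, so its first place depends in part on this floor. With a pseudocount of 1 CPM the ratio of Lrfn5 became -7.14, with 2 genes lower. Lrfn2 (chromosome 17, 48932379 to 49097588), which binds the postsynaptic scaffold PSD-95, had 5 SVZ reads and 136 cortex reads with a log2 ratio of -5.99 (-7.63 to -4.73), or -2.71 with that pseudocount. These genes were all but unread in the SVZ piece. Lrfn1 was measured at 1.09 and 2.09 CPM, a log2 ratio of -0.94 (-1.53 to -0.34), Lrfn3 at 7.02 and 8.71 CPM, a log2 ratio of -0.31 (-0.57 to -0.05) and Lrfn4, another phosphatase ligand, at 6.20 and 10.0 CPM, a log2 ratio of -0.69 (-0.94 to -0.44). None of these 3 reached 2-fold. Per length, Lrfn3 and Lrfn4 together led in the SVZ library, with 49.6% and 43.3% of the family, and Lrfn5 took 0.163%. In the cortex library Lrfn5 took 77.0%. The ratio of Lrfn3 exceeded that of Lrfn5 by 11.56 (9.67 to 14.62).

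The Slitrks, phosphatase ligands with leucine-rich repeats and, in all 6 genes, a coding sequence in 1 exon, were higher in the cortex library with 1 exception. Slitrk5 was lowest in ratio, at 9.99 CPM in SVZ against 61.8 CPM in cortex, and a log2 ratio of -2.63 (-2.78 to -2.48). Slitrk1 had 16.7 and 69.6 CPM, a log2 ratio of -2.06 (-2.18 to -1.94), Slitrk3, known for inhibitory synapses, 3.97 and 13.5 CPM, a log2 ratio of -1.76 (-2.03 to -1.50), and Slitrk4 5.00 and 10.6 CPM, a log2 ratio of -1.08 (-1.34 to -0.82). Slitrk2 differed less, at 46.4 and 69.3 CPM, a log2 ratio of -0.58 (-0.67 to -0.49). Slitrk6, best known from the inner ear, had 55 SVZ reads and 12 cortex reads with a log2 ratio of 0.97 (0.06 to 2.01), and its mean of 0.807 CPM was under the minimum. Slitrk2 made up 45.5% of the family per length in the SVZ library. In the cortex library Slitrk1 and Slitrk5 took nearly equal shares, 33.6% and 33.1%. Il1rapl1, a PTP-delta ligand of the IL-1 receptor family, was lowly read in both, with 109 SVZ reads and 43 cortex reads, and its log2 ratio of 0.12 (-0.40 to 0.66) showed no difference detectable at this depth.

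The netrin-G ligands of the Lrrc4 family were higher in the cortex library throughout. Lrrc4c (NGL-1, the netrin-G1 ligand) was measured at 7.62 CPM in SVZ against 43.4 CPM in cortex, and a log2 ratio of -2.51 (-2.68 to -2.34). Lrrc4 (NGL-2) had 6.98 and 28.6 CPM, a log2 ratio of -2.04 (-2.23 to -1.85), and Lrrc4b (NGL-3, which binds LAR-type phosphatases instead) had 19.9 and 40.2 CPM, a log2 ratio of -1.02 (-1.15 to -0.88). Lrrc4b held the most of the family's level per length in both libraries, 67.1% and 46.0%.

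The FLRTs differed among themselves in direction and amount. Flrt3 (chromosome 2, 140650914 to 140671469) was measured at 262 CPM in SVZ against 188 CPM in cortex, and a log2 ratio of 0.48 (0.43 to 0.53), and per length it was the first of the 39 members in the SVZ library, at 57.8 CPM per kilobase. It was thus among the few members with more in the SVZ library, by 1.39 times. Flrt2 went the other way, at 44.6 and 190.5 CPM, a log2 ratio of -2.09 (-2.17 to -2.02). Flrt1 had 30.7 and 33.2 CPM, a log2 ratio of -0.11 (-0.24 to 0.02), an interval that spans 0 by total reads and runs from -0.33 to -0.08 under TMM scaling. The ratio of Flrt3 exceeded that of Flrt2 by 2.57 (2.48 to 2.66). Flrt3 lies inside Macrod2 on the opposite strand, and that host gene had the reverse ratio, -1.39.

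The teneurins, large proteins that span the cleft by binding latrophilins or each other, were graded. Tenm1 (chromosome X, 42527866 to 43429126) had 50 SVZ reads and 499 cortex reads with a log2 ratio of -4.54 (-4.99 to -4.12). Tenm2 was measured at 14.1 and 139.5 CPM, a log2 ratio of -3.31 (-3.43 to -3.19) and Tenm3 at 32.5 and 186 CPM, a log2 ratio of -2.52 (-2.60 to -2.44). Tenm4, which is also known from the myelinating lineage, had 70.7 and 72.4 CPM, a log2 ratio of -0.03 (-0.12 to 0.05), which spans 0 by total reads but not under TMM scaling (-0.21 to -0.04). Over the family the fold excess in the cortex library fell from 23.3 for Tenm1 through 9.90 for Tenm2 and 5.73 for Tenm3 to 1.02 for Tenm4. Tenm4 took 48.4% of the teneurin level per length in SVZ and 11.5% in cortex, where Tenm3 took 46.4% and Tenm2 36.0%. Of the Lingos, Lingo1 (chromosome 9, 56618475 to 56796468), a partner of the Nogo receptor that restrains axon growth and myelination, had 39 SVZ reads and 626 cortex reads with a log2 ratio of -5.23 (-5.73 to -4.76). Lingo2 had 4.22 and 7.30 CPM, a log2 ratio of -0.79 (-1.09 to -0.49). Lingo1 was 37.4-fold and Lingo2 1.73-fold higher in the cortex library, so that the member leading per length was Lingo2 in the SVZ library (82.9%) and Lingo1 in the cortex library (81.7%).

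The leading member of a family per length differed between the libraries for 8 of 11 families, counting neurexins and phosphatases apart and Il1rapl1 not at all. The pairs, SVZ leader first, were Nrxn3 and Nrxn2, Ptprs and Ptprd, Nlgn2 and Nlgn1, Clstn1 and Clstn2, Lrfn3 and Lrfn5, Slitrk2 and Slitrk1, Tenm4 and Tenm3, and Lingo2 and Lingo1. The LRRTMs, netrin-G ligands and FLRTs kept 1 leader, namely Lrrtm4, Lrrc4b and Flrt3. Some SVZ leaders were not higher in the SVZ library, since in all these pairs except those of Nrxn3 and Ptprs the SVZ leader also had the higher CPM in the cortex library. No neurexin gene other than Nrxn2 and Nrxn3 was used here, and Nrxn3 led in the SVZ library narrowly, with 52.1% of their summed level per length. A leader is the first among the listed members of a family only.

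**Figure D3:**
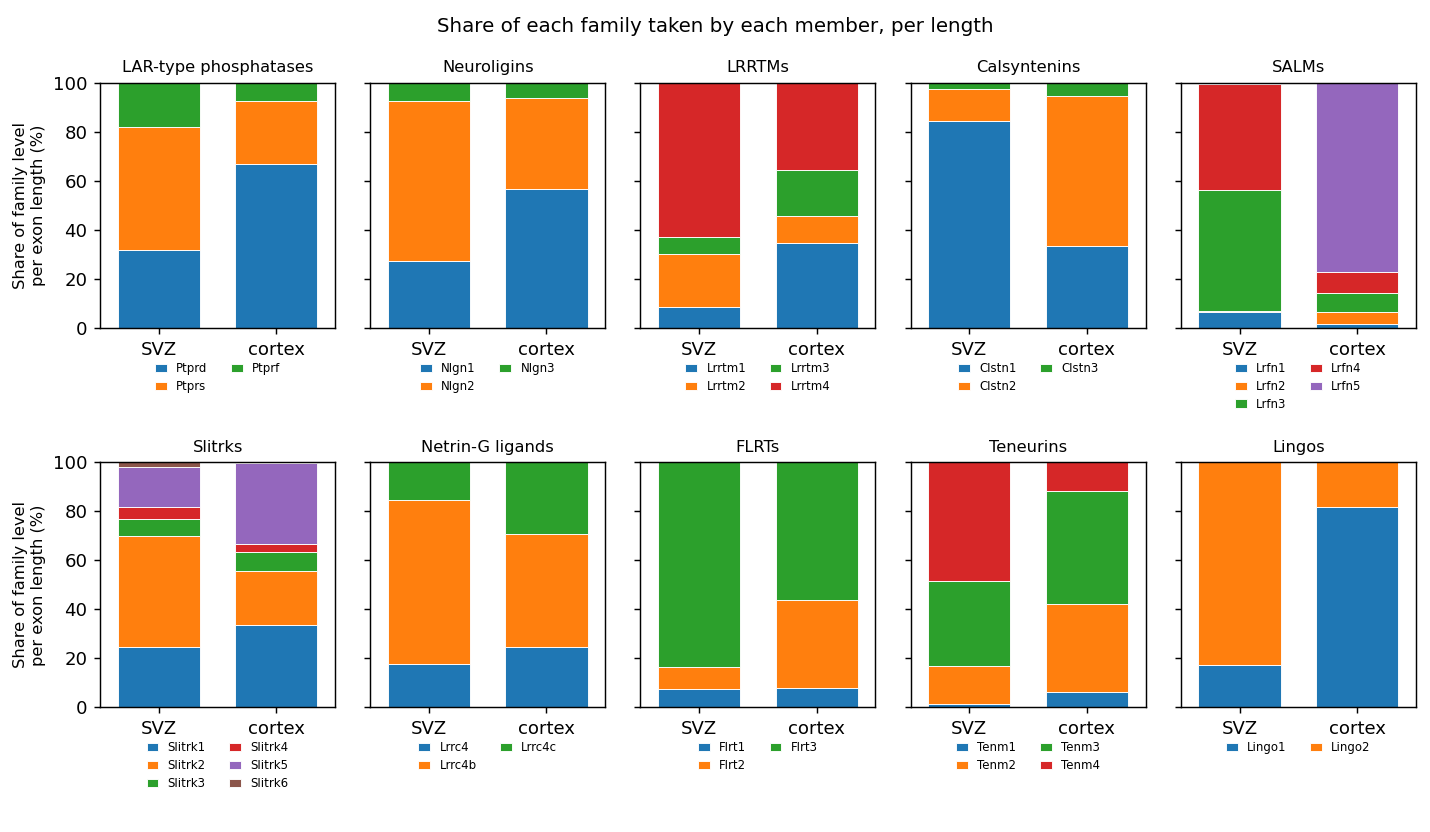
Share of each family's summed level per exon length (percent, 1 bar for the SVZ library and 1 for the cortex library) taken by each member, for the 10 families with at least 2 members other than the neurexins, with no error bars. The calsyntenin bar turns from mostly Clstn1 to mostly Clstn2, the SALM bar from Lrfn3 and Lrfn4 to Lrfn5 and the Lingo bar from Lingo2 to Lingo1, while Flrt3 fills the larger part of both FLRT bars.

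The amounts of the members were ordered within each library per length. In the SVZ library the highest levels were those of Flrt3 (57.8 CPM per kilobase), Ptprs (38.1), Ptprd (24.1), Clstn1 (18.8) and Ptprf (13.6). The lowest were those of Lrfn5 (0.00802), Lrfn2 (0.0304) and Tenm1 (0.116). In the cortex library Ptprd came first (99.2 CPM per kilobase), followed by Flrt3 (41.5), Clstn2 (41.4), Ptprs (37.9), Lrrtm4 (35.8), Lrrtm1 (35.1) and Lrfn5 (30.1). Lrfn5 was thus last of 39 in SVZ and number 7 in cortex. The places of the phosphatases rest on the gene model. With the exons of all GENCODE transcripts as the length, Flrt3 was first in both libraries and Ptprd was number 11 in the SVZ and 7 in the cortex. In the cortex library the lowest levels were those of Slitrk6 (0.128), Il1rapl1 (0.214) and Lrfn1 (0.595).

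The binding partners of these proteins were taken from a list of 38 genes. Of the 34 that reached 1 CPM on average, 24 were higher in the cortex library and 10 in the SVZ library. Among all 12738 genes tested, 5748 were higher in the cortex library and 6990 in the SVZ library. Past 4-fold were 8 partners in the cortex library (7.01% of all genes) and 3 in the SVZ library (10.2% of all genes). Cbln4 and Nxph3, with 0 SVZ reads, reached the minimum through the cortex library alone and had to be past 4-fold. The median ratio of the partners was -0.99. C1ql1 and C1ql3 were under this minimum, and C1ql2 had no read in either library. All 3 latrophilins, the receptors of FLRTs and teneurins, were higher in the cortex library, from Adgrl1 at -1.46 through Adgrl2 at -1.52 to Adgrl3 at -2.08. Unc5d, the FLRT receptor of migrating neurons, had 288 and 6.49 CPM, a log2 ratio of 5.47 (5.24 to 5.72), whereas Unc5b had a log2 ratio of -0.92 (-1.33 to -0.52). Of these 5 receptors, Unc5d alone had more in the SVZ library.

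Partners of the other families were found on both sides. The MDGAs, which block neuroligins from neurexins, had 7.35 and 138 CPM, a log2 ratio of -4.24 (-4.39 to -4.08) for Mdga2 and 16.4 and 7.53 CPM, a log2 ratio of 1.13 (0.88 to 1.37) for Mdga1. Netrin-G1 (Ntng1) was measured at 10.7 and 3.13 CPM, a log2 ratio of 1.78 (1.41 to 2.16), opposite in direction to its ligand gene Lrrc4c, and Ntng2 at 1.01 and 3.13 CPM, a log2 ratio of -1.63 (-2.18 to -1.09). Of the cerebellins, secreted neurexin ligands, Cbln2 had 20.6 and 3.04 CPM, a log2 ratio of 2.76 (2.41 to 3.14), Cbln1 1.19 and 8.71 CPM, a log2 ratio of -2.88 (-3.32 to -2.45), and Cbln4 0 and 56 reads. With 3 reads (0.0583 CPM) in place of the 0 in SVZ, the cortex level of Cbln4 was 43.5-fold higher. The exact 95% limit of the counts put it at least 34.3-fold higher. For the neurexophilin gene Nxph3, with 0 and 198 reads, the floor gave 154-fold and the exact limit at least 124-fold more in the cortex library. The log2 ratios of Nxph1, Nxph2 and Nxph4 were 0.19, -0.85 and -0.72. Among the heparan sulfate proteoglycans, Sdc2 stood at 19.0 and 3.13 CPM, a log2 ratio of 2.60 (2.25 to 2.98) and Gpc4, a glypican that binds Lrrtm4, at 76.5 and 44.6 CPM, a log2 ratio of 0.78 (0.68 to 0.88). Sdc3 had 47.1 and 59.6 CPM, a log2 ratio of -0.34 (-0.44 to -0.24), and Gpc1 a log2 ratio of -0.13 (-0.28 to 0.02), so that this group was divided 2 and 2. The remaining partners past 4-fold, all in the cortex library, were Ppfia4, a liprin bound by LAR-type phosphatases, at a log2 ratio of -3.13 (-3.64 to -2.66), Adgrb3 at -2.44 (-2.53 to -2.34) and Cadm2 at -2.26 (-2.33 to -2.19). The other liprins Ppfia1, Ppfia2 and Ppfia3 had ratios of 0.09, -0.40 and -1.30, and the relatives of Adgrb3, Adgrb1 and Adgrb2, had 0.37 and -1.15. All 4 SynCAM genes (Cadm1 to Cadm4) were over 2-fold higher in the cortex library.

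**Figure D4:**
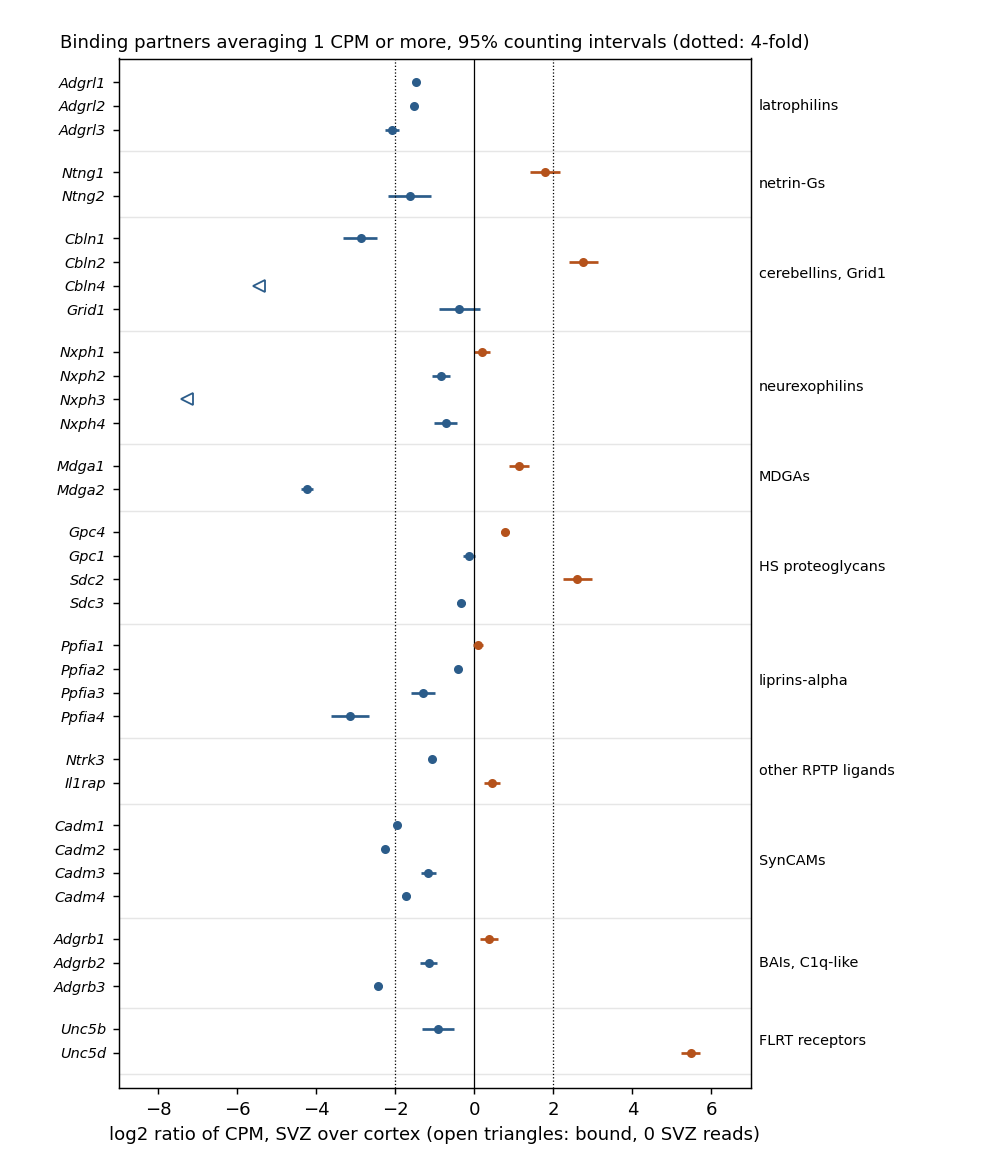
The log2 ratio of SVZ over cortex CPM for the 34 binding partners that reached 1 CPM on average, by group, with exact 95% counting intervals as bars, orange for genes higher in the SVZ library and blue for genes higher in the cortex library, dotted lines at 4-fold, and open triangles for bounds where the SVZ library had 0 reads. Unc5d, Cbln2 and Sdc2 lie to the right of the right-hand dotted line, and Nxph3, Cbln4 and Mdga2 lie farthest to the left.

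Several values rest on little data. Members with at most 100 reads in a library were 7 of 39, namely Lrfn1, Lrfn2, Lrfn5, Slitrk6, Tenm1, Lingo1 and Il1rapl1. At the 4-fold threshold the members just inside were Lrrc4 (-2.04), Ptprd (-2.04) and Slitrk1 (-2.06), whose intervals all reach within 4-fold, and those just outside were Slitrk3 (-1.76) and Lrrtm4 (-1.72). Ptprs was the 1 member whose point value changed side with the scaling. The sum of the stranded columns also counts reads where exons overlap on opposite strands, but cannot assign them to a gene, since the library kept no strand. It differed from the unstranded count for 4 members, by at most 2 reads. Among the partners it could differ more, as for Cadm1, with 4785 unstranded and 5686 stranded reads in SVZ and 7943 and 9773 in cortex.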

How the data were processed

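The authors trimmed reads with cutadapt 4.1, mapped read 1 to mm10 (equal to GRCm38) with STAR 2.7.9a and deposited its counts per gene, whole numbers that are not normalized. Each library was prepared from LCM RNA with a low-input kit. Removal of duplicates is not given in the sources used here. The stranded columns held near-equal parts (49.6% and 49.7% of reads in the first), so the unstranded deposited counts were used, the 4 summary lines left out, and the stranded columns summed as an alternative. The authors' table of the comparison (counts, CPM, fold change and its log10) was not used.

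CPM was computed on gene-assigned reads, which made up 59.0% of SVZ and 59.1% of cortex reads, so that 1 read was worth 0.0194 and 0.0453 CPM. Pseudocounts were not added to ratios, and 3 reads stood in for a count of 0. Intervals are exact Clopper-Pearson, and between paralogues exact conditional intervals of the odds ratio for the extremes of each family. Genes averaging 1 CPM or more over both libraries entered the counts. Lengths are exons of GENCODE M21 transcripts matched to RefSeq, found for all 39 members by symbol. By rule all members were named, and partners at least 4-fold apart. Other partners were named after their values were seen. The members and lists were chosen with earlier results of these data known. Alternatives were DESeq2 size factors (version 1.42.0), upper-quartile and TMM scaling in edgeR 4.0.16, thinning, a pseudocount, other minimums and a 2-fold threshold. Calculations ran in Python 3.11.15 (scipy 1.17.1, numpy 2.4.6, pandas 2.3.3) and R 4.3.3, with matplotlib 3.10.9 for plots, and were tested on simulated data. Promoter sequences are from RefSeq (GRCm38.p6). A partner gene is not reported here.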

Additional observations from a re-analysis of the deposited data

How the results depend on the processing

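No paired analysis was possible because there was only 1 library of SVZ and 1 of cortex, which also left no replicate to omit. The report counted 18 members 4-fold or more higher in the cortex library. The count stayed 18 under TMM, DESeq2 and upper-quartile scaling (7.49% to 7.52% of all genes) and with the stranded sum (7.03%). It was 17 with the SVZ library thinned (7.08% of all genes) and 16 with a pseudocount of 1 CPM (4.75%). With a minimum of 10 CPM it was 16 of 29 members tested (4.70% of all genes). Where the whole counting interval had to pass it was 15 (5.61%). None was 4-fold higher in the SVZ library under these settings, where 6.75% to 10.2% of all genes were. The scalings moved the median of all genes by -0.09 to -0.099 (log2). The members' median ratio of -1.74 became -2.04 with a mean of at least 10 CPM, which leaves fewer genes. For the partners, the 8 genes past 4-fold in the cortex library became 9 under the 3 scalings (7.49% to 7.52% of all genes) and with the stranded sum (7.03%). They became 6 with a pseudocount of 1 CPM (4.75%) and 4 with the 10 CPM minimum (4.70%). A 2-fold threshold gave 17 in the cortex library (15.6% of all genes) and 5 in the SVZ library (20.0%) in place of 3. Under the 10 CPM minimum, as under that of 1 CPM, members that passed through 1 library alone had to differ. At 10 CPM these were Lrfn5, Lingo1, Tenm1 and Lrrtm1, each under 4 CPM in SVZ, which could pass only by being past 4-fold in the cortex library. They are among the 16 and enter the median of -2.04. The count of families with different leaders was 8 with the exons of all GENCODE transcripts and 10 for reads with no length scaling, both chosen after the data were seen. No member with an interval clear of 0 changed direction, but Slitrk6 spanned 0 under the 3 scalings. A pseudocount of 1 CPM moved 7 members beyond their intervals, among them Lrfn5 to -7.14 and Lrfn2 to -2.71. More members left their intervals with the scaling, namely 10 under TMM, 11 under DESeq2 and 12 under upper-quartile scaling. The counting intervals thus do not cover the choice of scaling. Il1rapl1, whose interval spans 0, had equal levels when the SVZ library was thinned. Depth limits the members with few SVZ reads, in particular Lrfn5 (2 reads) and Lrfn2 (5 reads).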

Other observations

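The members differ widely in gene architecture. Their genomic spans (GENCODE M21, GRCm38) ran from 3883 bp for Lrfn4 to 2270724 bp for Ptprd. The 12 members that span at least 500000 bp, Ptprd, Nrxn3, Il1rapl1, Lrrc4c, Lingo2, Tenm1 to Tenm4, Nlgn1, Lrrtm4 and Clstn2, had a median log2 ratio of -2.28, and the 26 shorter ones -1.38. Among all protein-coding genes tested the medians were -0.89 for 186 genes of that span and 0.11 for 11569 shorter ones. Spearman's rho between span and ratio was -0.18 over the 38 members and -0.12 over 11755 protein-coding genes, a description across genes that share the same libraries.

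Members with a coding sequence in at most 2 exons, as in the Lrfn, Slitrk and FLRT genes, had a median ratio of -1.66 over 20 genes, against -1.88 over 18 genes with more coding exons. The X-linked members Slitrk2, Slitrk4, Nlgn3, Tenm1 and Il1rapl1 had a median of -1.08, with a range from -4.54 to 0.12, and the 33 autosomal ones -2.04. Among all genes tested, the 446 on chromosome X had a median of 0.17. Of the members nested inside another gene, Lrfn4 in Pcx and Lrrc4 in Snd1 had hosts with ratios of 1.12 and -0.12, and Lrfn1 in Samd4b and Flrt1 in Macrod1 had hosts at 0.23 and -0.42.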
